A study of Mus musculus with 2 samples.

Results

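Amino acids enter cells through membrane carriers of several families, and 10 genes for such carriers are described here: Slc7a11, Slc7a1, Slc7a3, Slc7a5, Slc3a2, Slc1a4, Slc1a5, Slc38a1, Slc38a2 and Slc6a9. They were chosen by gene symbol from a table of 16803 genes, and all 10 were found in it. RNA came from NE4C cells, a mouse neural stem cell line that was cloned from embryonic brain. The control was a normal culture and gave 1 library. The other library came from a culture given homocysteine thiolactone (HTL), a reactive ring form of homocysteine that can attach to lysines of proteins. Both cultures grew in Eagle MEM on plates coated with poly-L-lysine, and the labels name no other treatment and no dose or duration of HTL. With 1 library a condition, no difference has a replicate check. Tests and intervals cover counting error between these libraries only, and they compare the libraries, not the conditions.

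The control library held 10350665 reads assigned to genes and the HTL treatment library 9102076. The test compared the reads of each of 13442 genes with these totals. The median log2 ratio of HTL treatment over control among them was -0.14, and other scalings moved the median up by 0.09 to 0.14. It was 0.14 among the shortest 10% of transcripts and -0.38 among the longest 10%. Of 8 neural stem cell markers, Fabp7 had 2 reads in each library and the other 7 were detected; their FPKM, a level per transcript length and library size, summed to 169 in the control and 113 in the HTL treatment library. The summed FPKM of 4 neuron markers was 20.1 and 27.7. The other marker sums, for 2 astrocyte, 2 oligodendrocyte, 3 fibroblast genes and 1 microglia gene, were at most 3.92 in the control and 4.26 in the HTL treatment library, and Gfap, the defining astrocyte marker, had 2 and 0 reads, while the astrocyte marker Aldh1l1 had 21 and 56. The markers of a type did not move together. Among the stem cell markers Sox2 had 34.7 FPKM in the control and 12.6 in the HTL treatment library, Vim 78.5 and 38.8, Prom1 11.9 and 18.3, and Notch1 1.24 and 2.63. Among the neuron markers Tubb3 had 16.3 and 24.8 FPKM and Dcx 0.93 and 0.34. Aqp4, Olig2, Ptprc and Csf1r were also looked for and matched none of the 16803 genes by symbol. The part of these differences in the values of the carriers was not tested. In bulk RNA, fewer cells of a type and less RNA per cell cannot be told apart.

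The carriers work in a few known ways. Slc3a2, also called CD98hc or 4F2hc, is a heavy chain that brings light chain carriers to the plasma membrane. Its light chains include Slc7a5 (LAT1), which takes up leucine and other large neutral amino acids in exchange for others, and Slc7a11 (xCT), which takes up cystine in exchange for glutamate and so feeds glutathione synthesis. Slc7a1 (CAT1) and Slc7a3 (CAT3) carry arginine and lysine without a heavy chain. Slc1a4 and Slc1a5 exchange alanine, serine, cysteine and, for Slc1a5, glutamine. Slc38a1 and Slc38a2 use the sodium gradient to bring in glutamine and alanine, and Slc6a9 (GLYT1) takes up glycine. Several of these genes are known targets of ATF4, a transcription factor made when amino acids are short or the endoplasmic reticulum is stressed. Homocysteine and its thiolactone are themselves made from methionine, an amino acid that enters cells in part through Slc7a5.

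The bases before the start site of the gene at the head of the control order, Slc7a11, and of the gene at the head of the HTL treatment order, Slc3a2, are shown, since the letters bound by ATF4 with its C/EBP partners were searched there. The 250 bases come from RefSeq, build GRCm38.p6, and run 5′ to 3′ along the gene. Both genes lie on the minus strand, Slc7a11 at chr3:50443614-50443863 and Slc3a2 at chr19:8713898-8714147. Capitals mark TGATGNAA on either strand.
Slc7a11: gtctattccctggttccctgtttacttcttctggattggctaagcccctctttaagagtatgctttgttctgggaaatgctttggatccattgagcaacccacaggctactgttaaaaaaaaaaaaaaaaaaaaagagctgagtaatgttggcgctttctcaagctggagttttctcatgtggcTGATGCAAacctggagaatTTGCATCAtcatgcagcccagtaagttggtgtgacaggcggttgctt
Slc3a2: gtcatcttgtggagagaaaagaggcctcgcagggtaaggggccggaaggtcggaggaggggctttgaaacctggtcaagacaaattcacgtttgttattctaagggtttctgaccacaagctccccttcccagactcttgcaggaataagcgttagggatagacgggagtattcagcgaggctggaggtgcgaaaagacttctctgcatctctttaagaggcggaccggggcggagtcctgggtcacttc
Slc7a11 held the letters in 2 places, 66 to 59 bases before the start on the gene's own strand and 47 to 40 bases before it on the other strand. Slc3a2 had no match in this window. Promoters of 6 of the 10 carriers matched by symbol (Slc7a11, Slc7a1, Slc3a2, Slc1a4, Slc38a2 and Slc6a9), with 9 promoters in all, since Slc6a9 had 3 and Slc7a1 had 2. In windows of 300 bases, from 250 before to 50 after the start, 2 of these 9 promoters held TGATGNAA, those of Slc7a11 and Slc1a4, against 3.97% of all 32851 promoters. The Slc1a4 match ran from 4 bases before the start to 3 bases after it. In the 250 bases before the start alone, 1 of the 9 promoters held it, against 3.45% of all promoters. In 4 of the 9 promoters, of Slc38a2, Slc6a9 and Slc7a1, stood TGACNNNGC, the core of the antioxidant element, against 12.4% of all promoters. None of the 9 held the E-box CACGTG, which stood in 7.15%. Each motif was searched on both strands, and no match overlapped another. These matches are letters only, and binding was not measured.

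The comparison of the HTL treatment library with the control asked which carriers changed in level. Slc7a5, Slc7a3, Slc7a1, Slc3a2 and Slc6a9 were higher in the HTL treatment library by 2.88-fold to 3.42-fold. Slc1a4 was 1.75-fold higher, the counting interval of Slc1a5 held 0, and Slc38a1, Slc38a2 and Slc7a11 were slightly lower. A gene was called when the exact conditional binomial test gave a Benjamini-Hochberg adjusted p no higher than 0.001 and the log2 ratio was 1 or more in either direction. By this rule 5 of the 10 carriers rose and 0 fell, where 2.81% of all genes tested rose, 7.98% fell and 10.8% were called in all. The carriers and the gene lists below were chosen with earlier results of these data known. Their counts describe them and do not test for an excess over all genes. With the cutoff on p alone, 9 of the 10 carriers were called, against 38.6% of all genes tested. Of these 9, Slc38a1 lost that call under the 3 other scalings, with adjusted p between 0.319 and 0.979 in the exact conditional binomial test. When a coefficient of variation of 0.1 between cultures was assumed in edgeR's exact test, Slc1a4, Slc38a1, Slc38a2 and Slc7a11 missed the cutoff on p. The median log2 ratio of the carriers was 1.17. All 10 passed the minimum of 10 reads, Slc6a9 with the fewest. The 5 calls stood under all 3 other scalings, under other read minimums and pseudocounts, and relative to genes of like length. They were lost when a biological coefficient of variation of 0.2 between cultures was assumed in edgeR's exact test, with adjusted p between 0.0022 and 0.033, and at 0.4 every adjusted p was 1.

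**Figure D1:**
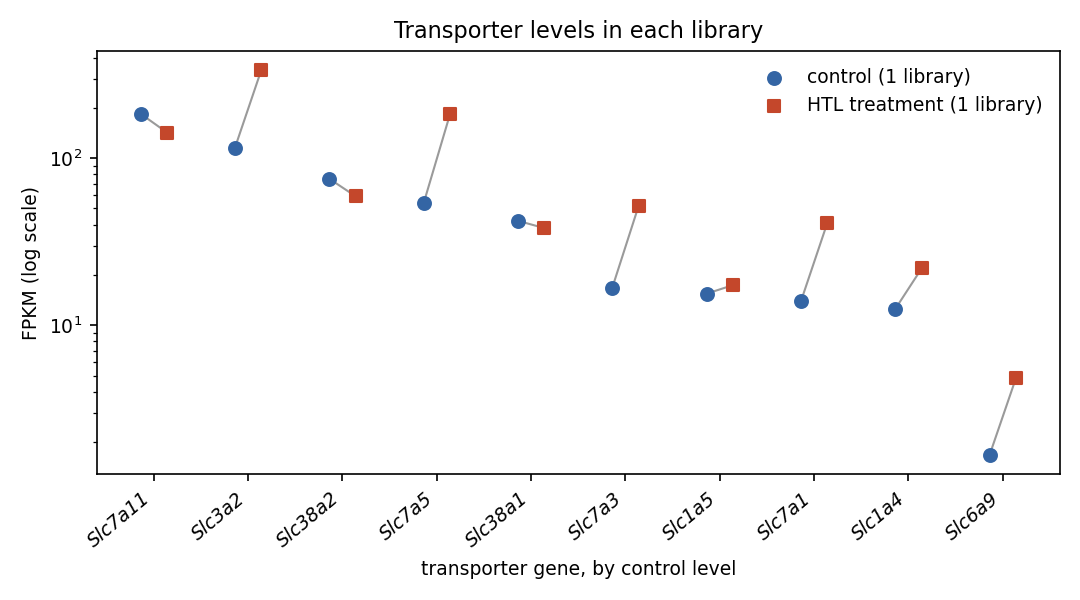
Level of each of the 10 carriers, with FPKM on a log axis, in the control library (circles) and the HTL treatment library (squares), ordered by control level; each point is 1 library, so there are no error bars. Slc7a11 stood highest in the control at 184.6 FPKM and Slc3a2 highest in the HTL treatment library at 337 FPKM, and the lines for Slc7a5, Slc7a3, Slc7a1, Slc3a2 and Slc6a9 rise most steeply.

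The heavy chain Slc3a2 had 3091 reads in the control and 7946 in the HTL treatment library. Its level went from 115 to 337 FPKM, and its rank by FPKM among all genes of the table from 605 to 203. It rose by a log2 ratio of 1.55 (95% interval 1.49 to 1.61), or 2.92-fold. In build mm9 it lies on chromosome 19 from base 8781372 to 8797859 on the minus strand.

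Slc7a5, the LAT1 light chain, had 1962 control reads and 5909 reads after HTL. Its level was 53.6 and 183 FPKM. The log2 ratio of 1.78 (1.70 to 1.85) was the largest of the 10 carriers under the column totals and lay above 98.9% of all genes tested. Its rank by FPKM among all genes went from 1382 to 399. The gene lies on chromosome 8, from 124405052 to 124431594 on the minus strand.

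Slc7a11, the xCT light chain, went the other way. It had 17870 control reads, the most of any of the 10 carriers, and 12153 in the HTL treatment library. Its level was 184.6 FPKM in the control and 142 FPKM in the HTL treatment library. The log2 ratio was -0.37 (-0.40 to -0.34), with an adjusted p of 1.55e-105 in the exact conditional binomial test and a size below the cutoff of 1. With an assumed coefficient of variation of 0.1 between cultures, Slc7a11 missed the cutoff on p in edgeR's exact test. The transcript is 9227 bases long, among the longest 10% of transcripts, and relative to the median of those transcripts the log2 ratio was 0.0068. Part of its reads were divided with similar sequences, since its estimated counts were fractional, as were those of Slc7a1 and Slc3a2. Slc7a11 lies on chromosome 3 from 50168858 to 50247535 on the minus strand.

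A ratio between carriers within a library does not depend on how the libraries are scaled. It can still carry the trend of the log2 ratio with transcript length, and no ratio given here was corrected for it. Relative to transcripts of like length, the log2 ratios were 1.94 (Slc7a5), 1.68 (Slc3a2) and 0.0068 (Slc7a11). By that measure Slc7a5 and Slc3a2 lay closer to Slc7a11 than by column totals. The Slc7a5 to Slc7a11 read ratio was 0.11 in the control and 0.486 in the HTL treatment library, 4.43 times higher (exact conditional 95% interval 4.19 to 4.69). The Slc3a2 to Slc7a11 ratio was 3.78 times higher (3.60 to 3.97). Slc7a5 and Slc3a2 moved more nearly together, and their ratio was 1.17 times higher (1.10 to 1.25). The light chains known to join Slc3a2 were set beside it. The other 4 are Slc7a6, Slc7a7, Slc7a8 and Slc7a10, which carry basic, large neutral or small neutral amino acids. All 6 light chains summed to 275 FPKM in the control and 373 FPKM in the HTL treatment library, so the ratio of light chains to the heavy chain went from 2.38 to 1.11. By reads per kilobase of the deposited transcript length, the ratio was 2.39 and 1.11. Slc7a11 made up 67.2% of light chain FPKM in the control and 38.2% in the HTL treatment library. Slc7a5 made up 19.5% and 49.1%. The shares of Slc7a6 were 6.99% and 7.84%, those of Slc7a7 6.09% and 4.67%, and Slc7a8 and Slc7a10 were each at or below 0.38 FPKM. These are ratios of RNA, and protein was not measured.

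**Figure D2:**
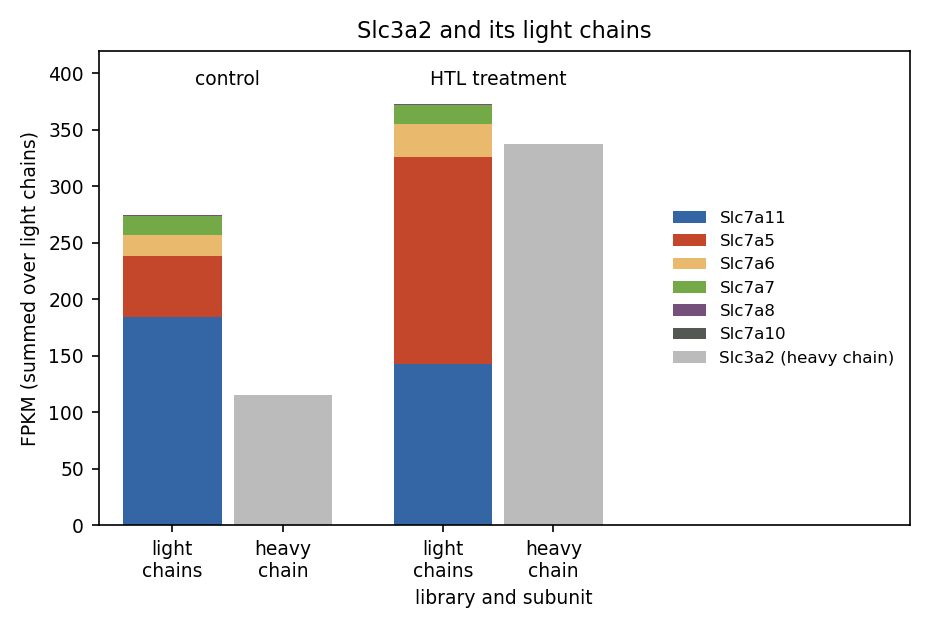
FPKM of the heavy chain Slc3a2 (grey bars) beside the summed FPKM of its 6 light chains (stacked bars, 1 colour a gene) in the control and HTL treatment libraries, 1 library each and no error bars. The light chain stack is 275 FPKM in the control and 373 FPKM in the HTL treatment library, with Slc7a11 the tallest band in the control and Slc7a5 in the HTL treatment library.

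Both cationic carriers rose. Slc7a1, the general arginine and lysine carrier, had 1044 reads in the control and 2705 in the HTL treatment library, at 13.9 and 41.0 FPKM. Its log2 ratio was 1.56 (1.46 to 1.66). Slc7a3, its relative in brain, had 395 and 1083 reads and 16.7 and 51.9 FPKM. Its log2 ratio was 1.64 (1.47 to 1.81). The pair summed to 30.6 FPKM in the control and 92.9 FPKM in the HTL treatment library, 3.03-fold. The Slc7a3 to Slc7a1 read ratio was 1.06 times its control value (0.92 to 1.22), so a difference between their changes was not detectable at this depth. Their coding sequences were 60.1% identical, against 54.5% between Slc7a11 and Slc7a5 and 41.2% to 41.8% for each cationic carrier with these 2 light chains. Slc7a2, another member of the cationic branch, fell from 98 to 41 reads, with a log2 ratio of -1.06 (-1.63 to -0.53) that lost its call under all 3 other scalings. Slc7a1 lies on chromosome 5 from 149138986 to 149211480 and Slc7a3 on chromosome X from 98274549 to 98281359, both on the minus strand.

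The 2 carriers for alanine, serine and cysteine differed from each other. Slc1a4 had 512 reads in the control and 790 in the HTL treatment library, and 12.5 and 21.9 FPKM. Its log2 ratio of 0.81 (0.65 to 0.97) had an adjusted p of 1.26e-22 in the exact conditional binomial test and missed the size cutoff, also under the other scalings, where it reached 0.95. With an assumed coefficient of variation of 0.1 between cultures, Slc1a4 also missed the cutoff on p in edgeR's exact test. Slc1a5, which also carries glutamine, had 443 and 439 reads and 15.4 and 17.4 FPKM. Its log2 ratio was 0.17 (-0.021 to 0.37), with an adjusted p of 0.125 in the exact conditional binomial test. The Slc1a4 to Slc1a5 read ratio was 1.56 times higher in the HTL treatment library (1.31 to 1.86). Together they went from 28.0 to 39.3 FPKM, 1.40-fold. Their coding sequences were 62.3% identical, the closest of the pairs compared. Slc1a4 lies on chromosome 11 from 20202183 to 20232716 on the minus strand, and Slc1a5 on chromosome 7 from 17366695 to 17383623 on the plus strand.

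The system A carriers Slc38a1 and Slc38a2 were slightly lower. Slc38a1 had 3196 reads in the control and 2552 in the HTL treatment library, and 42.2 and 38.1 FPKM. Its log2 ratio of -0.14 (-0.21 to -0.064) was that of the median gene, came to -0.0092 under TMM scaling, and was 0.24 relative to transcripts of like length. Slc38a2, the member best known to be induced when amino acids are short, had 3658 and 2529 reads and 75.4 and 59.1 FPKM. Its log2 ratio was -0.35 (-0.42 to -0.27). It stayed below 0 under each other scaling and relative to transcripts of like length. The Slc38a2 to Slc38a1 read ratio was 0.87 times its control value (0.80 to 0.93). The pair summed to 118 FPKM in the control and 97.3 FPKM in the HTL treatment library. The Slc7a1 to Slc38a1 read ratio went from 0.327 to 1.06, 3.24 times higher (2.97 to 3.55). Both system A genes lie on the minus strand of chromosome 15, Slc38a1 from 96401849 to 96473344 and Slc38a2 from 96517825 to 96530129.

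The glycine carrier Slc6a9 had the lowest level, with 57 reads in the control and 145 in the HTL treatment library, or 1.67 and 4.83 FPKM. Its log2 ratio of 1.52 had the widest interval, 1.08 to 2.0. Its exons on chromosome 4, within 117507111 to 117547803 on the plus strand, overlap exons of 3 genes of the other strand, B4galt2, Ccdc24 and Gm17114, and the other 9 carriers overlap none. Without a stated use of strand, reads of Slc6a9 and of these genes cannot be told apart where they overlap. B4galt2 fell from 215 to 89 reads, a log2 ratio of -1.08, and Ccdc24 from 61 to 12 reads, a log2 ratio of -2.12. Gm17114 matched none of the 16803 genes by symbol, and the part of the overlap in the value of Slc6a9 was not tested.

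**Figure D3:**
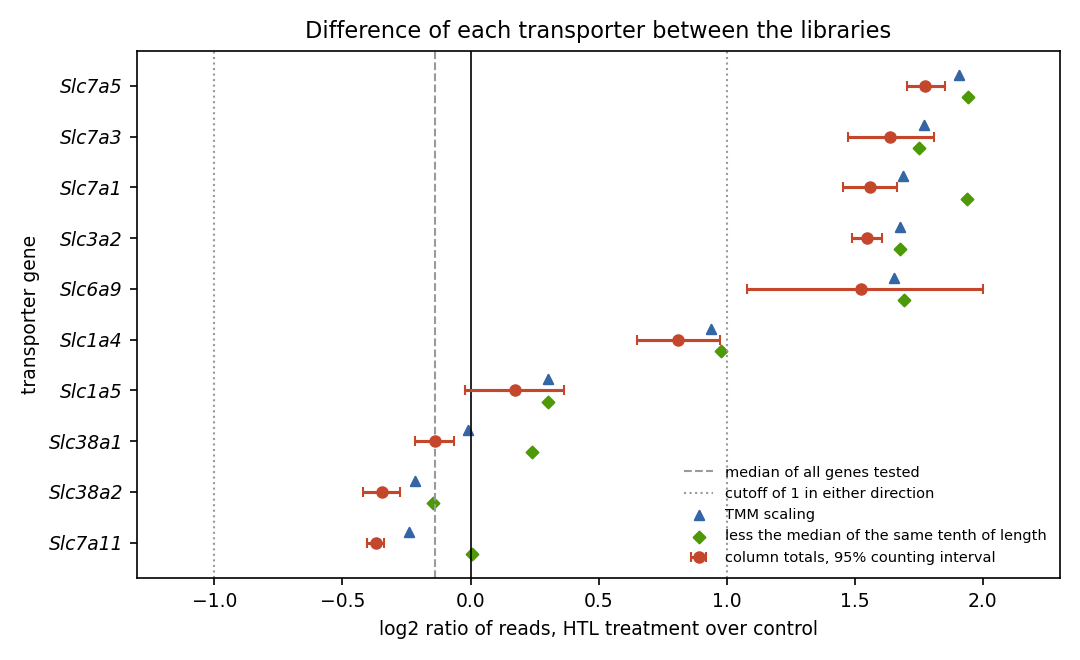
Log2 ratio of reads, HTL treatment over control, for each carrier. Circles with bars are ratios by library totals with 95% counting intervals, triangles are TMM scaling, diamonds are relative to the median of transcripts of like length, the dashed line is the median of all genes tested and dotted lines are the cutoff of 1. Slc7a5, Slc7a3, Slc7a1, Slc3a2 and Slc6a9 sit beyond 1 by all 3 measures, and the diamonds of Slc7a11 and Slc38a1 fall above 0 while their circles fall below it.

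The order of levels changed. From the highest FPKM in the control the order was Slc7a11, Slc3a2, Slc38a2, Slc7a5, Slc38a1, Slc7a3, Slc1a5, Slc7a1, Slc1a4 and Slc6a9. In the HTL treatment library it was Slc3a2, Slc7a5, Slc7a11, Slc38a2, Slc7a3, Slc7a1, Slc38a1, Slc1a4, Slc1a5 and Slc6a9. Of 9 pairs of neighbours in the control order, 3 did not differ beyond counting error, and they join Slc7a3, Slc1a5, Slc7a1 and Slc1a4, which lay between 12.5 and 16.7 FPKM. In the HTL treatment library 0 of 9 neighbour pairs had a counting interval that held 1. The closest was Slc7a1 above Slc38a1, with an FPKM ratio of 1.07 (1.02 to 1.13). The 10 carriers summed to 531 FPKM in the control and 897 FPKM in the HTL treatment library. In all, 7 carriers lay above 0 and 3 below 0 on the log2 scale under the 4 scalings run. By column totals, 5549 of the 13442 genes tested lay above 0. Relative to genes of like length, Slc7a11 and Slc38a1 also lay above 0.

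**Figure D4:**
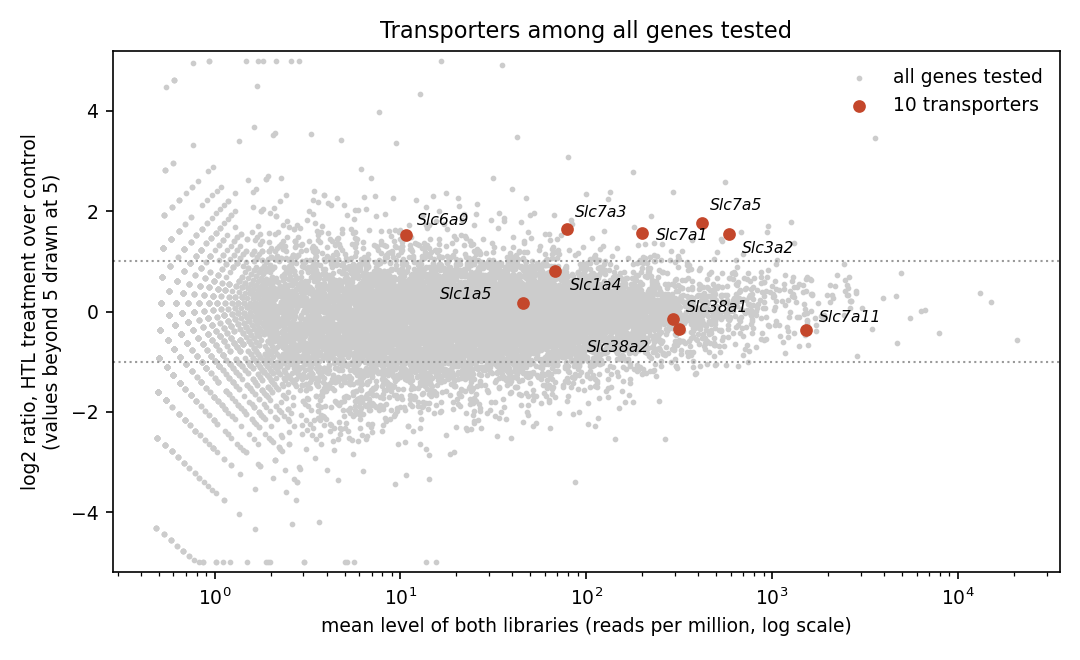
Log2 ratio of HTL treatment over control against the mean level of both libraries in CPM on a log axis, for all 13442 genes tested (grey) and the 10 carriers (red, named), with dotted lines at 1 and -1. The carriers lie at mid to high levels, with Slc7a11 farthest to the right and Slc6a9 farthest to the left, and 5 of them are above the upper dotted line.

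The other amino acid transporters of the plasma membrane lay near the rest of the genes. Of 39 genes listed, 30 matched a row of the table and 24 were tested; 2 rose, 1 fell and 21 were not called, which is 12.5% called against 10.8% of all genes. Their median log2 ratio was 0.085, and 0.18 to 0.22 under the 3 other scalings. Slc1a6, a neuronal glutamate carrier, rose from 25 to 62 reads, a log2 ratio of 1.48. Slc43a2 (LAT4), a carrier of large neutral amino acids, rose from 60 to 113 reads, a log2 ratio of 1.09. The 1 that fell was Slc7a2. The genes of highest control level in this list were not called. Slc6a6, the taurine carrier, had 2280 and 1237 reads (log2 ratio -0.70), Slc38a10 had 1160 and 1106 (0.12) and the light chain Slc7a6 had 747 and 1002 (0.61).

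Carriers of lysosomes, mitochondria and synaptic vesicles were tested for 18 of 21 genes, with 0 called higher and 1 lower, which is 5.56% called against 10.8% of all genes tested. The median log2 ratio was -0.20, and -0.11 to -0.067 under the 3 other scalings. Slc38a9, a lysosomal arginine carrier and sensor, fell from 140 to 60 reads, a log2 ratio of -1.03 that lost its call under the 3 other scalings. Slc25a38, a mitochondrial glycine carrier, had 168 and 280 reads, a log2 ratio of 0.92 that was called under those scalings. Sfxn1, which brings serine into mitochondria, had 1491 and 780 reads (-0.75), and Slc25a44 had 498 and 531 (0.28).

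Amino acids inside the cell are read by proteins that act on the kinase mTORC1 at the lysosome. All 25 listed sensing genes were tested; 1 rose and 3 fell, with a median log2 ratio of -0.27, and -0.17 to -0.13 under the 3 other scalings. That is 16% called, near the 10.8% of all genes tested. Sesn2, which binds leucine and holds mTORC1 back when leucine is low, rose from 447 to 2063 reads, a log2 ratio of 2.39. The Rag GTPase Rragb fell from 1506 to 331 reads (-2.0). Gatsl2, a relative of the arginine sensor, fell from 612 to 177 reads (-1.60), and Mios, a part of the GATOR2 complex, from 353 to 134 (-1.21). The highest by FPKM in the control were Sec13 with 1654 and 1723 reads (0.24), Seh1l with 3541 and 2494 (-0.32) and Lamtor2 with 377 and 480 (0.53). Those 3 were not called.

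Among 17 regulators with textbook links to amino acid carrier genes, 8 rose and 2 fell, which is 58.8% called against 10.8% of all genes tested. The median log2 ratio was 0.40, and 0.68 relative to transcripts of like length. Atf4 rose from 3047 to 7124 reads, a log2 ratio of 1.41 (1.35 to 1.47). Trib3, a pseudokinase that is itself induced by ATF4, rose from 173 to 1297 reads (3.09). The ATF4 relative Atf5 rose from 339 to 1509 (2.34), Cebpb from 52 to 228 (2.31), Ddit3, also called CHOP, from 98 to 385 (2.15) and Xbp1 from 206 to 625 (1.78). Myc, which drives Slc7a5 and Slc1a5 in other cells, fell from 538 to 111 reads (-2.09). Its relative Mycn had 1190 and 608 reads (-0.78). Nfe2l2, which encodes NRF2 and is a known activator of Slc7a11, had 829 and 816 reads (0.16). Keap1, the repressor of NRF2, was the other regulator that fell, from 316 to 115 reads (-1.27), and was named after its value was seen. The 4 kinases that phosphorylate eIF2 alpha and so favour ATF4 translation, Eif2ak1, Eif2ak2, Eif2ak3 and Eif2ak4, were not called, with log2 ratios between -0.79 and -0.039. They were named after their values were seen.

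Of 18 genes outside transport that ATF4 is known to activate, 9 rose, 0 fell and 9 were not called, where 2.81% of all genes tested rose. The median log2 ratio was 1.09. All 18 log2 ratios lay above 0, as did those of 5549 of the 13442 genes tested. That of Chac1, which was named after its value was seen, was 0.049 with an interval of -0.21 to 0.31. Trib3 and Sesn2, described above, are among them. Nupr1 rose from 15 to 98 reads (2.85), Atf3 from 128 to 612 (2.44), Ppp1r15a, which reverses eIF2 alpha phosphorylation, from 469 to 1962 (2.25), and Aldh18a1, an enzyme of proline synthesis, from 1215 to 2708 (1.34). The serine and asparagine synthesis genes were the most abundant. Asns had 2416 and 4235 reads, a log2 ratio of 0.995 that was called under the 3 other scalings, Phgdh had 4772 and 7207 (0.78) and Psat1 had 7320 and 9526 (0.57). Of 12 NRF2 targets, 2 rose and 0 fell, which is 16.7% called against 10.8% of all genes tested, with a median log2 ratio of -0.063 that was above 0 under the other scalings. Hmox1, the heme-degrading enzyme, rose from 903 to 1721 reads (1.12). Osgin1 rose from 6 to 24 reads (2.09) and was named after its value was seen. Prdx1 had 4448 and 3663 reads (-0.095) and Txnrd1 had 3824 and 4214 (0.33). Gclc and Gclm, the subunits of the enzyme that uses the cysteine brought in by Slc7a11, had log2 ratios of -0.40 and -0.12 and were also named after their values were seen.

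**Figure D5:**
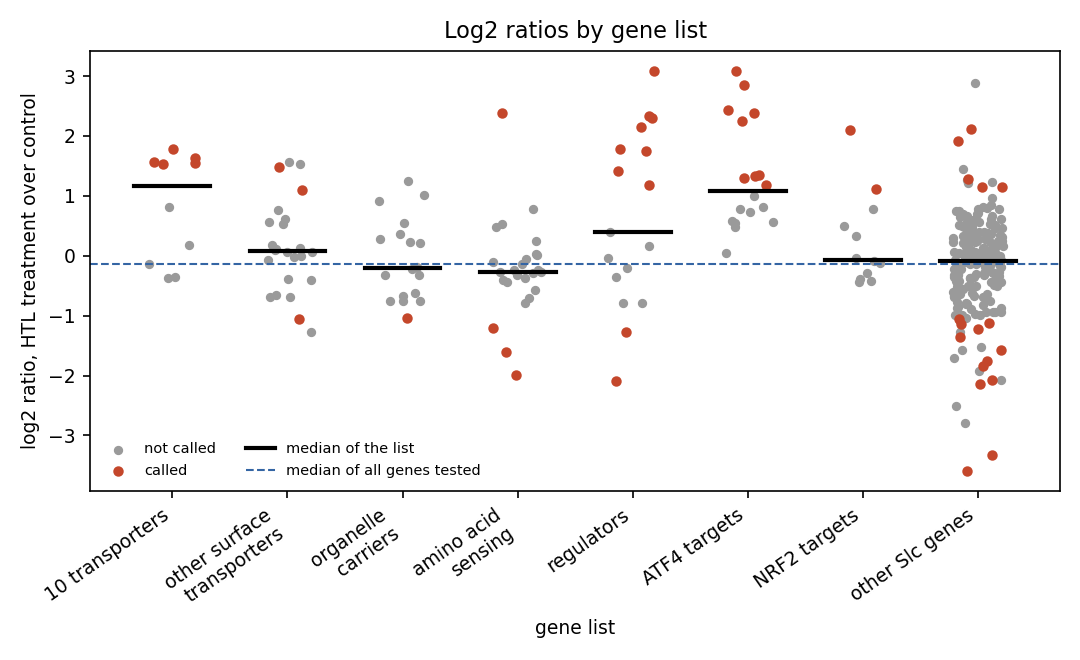
Log2 ratio of HTL treatment over control for each gene tested, by gene list; red points were called, grey points were not, black bars are list medians and the dashed line is the median of all genes tested. The medians of the 10 carriers (1.17) and of the ATF4 targets (1.09) stand highest, and the medians of the other 6 lists lie between -0.27 and 0.40.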

How the data were processed

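RNA of NE4C cells was measured in 1 control library and 1 HTL treatment library, grouped by sample title. Per the labels, libraries were made from total RNA with an Illumina TruSeq kit, sequenced on a BGISEQ-500 and analysed on mouse build mm9. The authors estimated reads per gene with RSEM, which divides reads among similar genes, and deposited these estimated counts, not normalized. The authors also deposited FPKM, which scales each gene by its transcript length and its library. The mapper, software versions, annotation release and use of strand were not given in the sources used here. The deposited table also holds the authors' log2 ratio, direction, p-value and FDR for each gene, which were not used.

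Estimated counts were rounded to whole reads. A minimum of 10 reads over the pair of libraries left 13442 genes to test and removed 3361. The two-sided exact conditional binomial test set each gene's reads against the library totals (scipy 1.17.1), adjusted by Benjamini-Hochberg over all 13442 genes. Log2 ratios had 0.5 read added, and 95% intervals were Clopper-Pearson. Since reads carried no molecular identifiers, intervals cover counting error only. Without replicates, neither edgeR's quasi-likelihood test nor DESeq2 could be fitted; edgeR 4.0.16 gave the TMM and upper quartile scalings and the exact test with an assumed coefficient of variation. On simulated counts for 16803 genes, 200 of 200 changed genes and 0 unchanged genes of 13460 tested were called, and 96.0% of intervals held the true ratio. The simulated counts had counting error only. The changed genes had at least 200 expected control reads and log2 changes beyond the cutoff of 1. So the simulation did not cover variation between cultures, smaller changes or genes with few reads. Gene spans and exon overlaps came from GENCODE vM1 on NCBIM37, the assembly of mm9. Promoters came from RefSeq (GRCm38.p6). Identity was that of aligned coding bases.

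The carriers and gene lists were chosen with earlier results of these data known. All carriers were named and, from each other list, called genes with at least 50 reads over both libraries (the 6 largest by absolute log2 ratio) and the 3 genes of highest control FPKM. The light chain comparison, the read ratios, the grouped sums, the order of neighbours and the overlapping genes were added after values were seen. Alternatives were 3 other scalings, other read minimums, other added constants, other cutoffs, transcript length and assumed variation.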

Additional observations from a re-analysis of the deposited data

How the results depend on the processing

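No paired analysis was possible because the control and the HTL treatment were sequenced in 1 library each. For the same reason no library could be left out. Of 384 values recomputed under an alternative, 306 kept their direction and their side of the cutoffs or stayed close to the value reported, 49 moved, 15 lost a call, 4 gained one and 10 changed sign. A count was judged by its number alone, whatever genes and directions it held, and moved when it changed by over 1.5 times. A list's median moved when it left the counting interval of the list's middle gene or genes. The alternatives for most results were 3 scalings (TMM, median of ratios, upper quartile), minimums of 1 read in all or a mean of 50 reads, 5 reads added in place of 0.5, ratios of FPKM + 1, assumed coefficients of variation of 0.1, 0.2 and 0.4, no cutoff on the log2 ratio, a cutoff of 2, an adjusted p of at most 0.05, and values relative to transcripts of like length.

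The 1450 calls over all genes became 816 with the ratio of FPKM + 1, 120 and 6 at assumed coefficients of variation of 0.2 and 0.4, 5195 with no cutoff on the log2 ratio and 287 at a cutoff of 2. The split of 378 higher and 1072 lower was 552 and 800 by TMM, 559 and 788 by the median of ratios, 498 and 860 by the upper quartile, and 513 and 775 relative to transcript length. The 5 carrier calls became 0 at 0.2, at 0.4 and at a cutoff of 2, and 9 with no cutoff on size. The carriers that lost their call there kept their log2 ratios of 1.78 (Slc7a5), 1.64 (Slc7a3), 1.56 (Slc7a1), 1.55 (Slc3a2) and 1.52 (Slc6a9), since only the cutoff or the assumed spread was changed. With no cutoff on size the gains were Slc1a4 (0.81), Slc38a1 (-0.14, adjusted p between 0.319 and 0.979 in the exact conditional binomial test under the 3 other scalings), Slc38a2 (-0.35) and Slc7a11 (-0.37). Each of these gains missed the cutoff on p at every assumed coefficient of variation. Relative to transcripts of like length, Slc7a11 changed sign to 0.0068 and Slc38a1 to 0.24. The subtracted medians were negative. By these bounds the median of the regulators moved from 0.40 to 0.68 relative to transcripts of like length, and the count of carriers with TGATGNAA from 2 to 1 in the 250 bases before the start alone. Within them, the median of plasma membrane transporters went from 0.085 to 0.21 by TMM and 0.26 relative to length, that of organelle carriers from -0.20 to -0.073 and -0.090, and that of sensing genes from -0.27 to -0.14 and -0.19. Without a call, Slc38a1 went from -0.14 to -0.0092 by TMM.

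Among the other lists, the 3 calls of plasma membrane transporters became 0 with FPKM + 1, at each assumed coefficient of variation (0.1, 0.2 and 0.4) and at a cutoff of 2, and 7 with no cutoff. The 1 call of organelle carriers became 0 in those settings, with 5 reads added and relative to length, 6 with no cutoff and 2 at an adjusted p of at most 0.05. Under the 3 other scalings it stayed 1 but changed gene and direction, from Slc38a9 (lower) to Slc25a38 (higher). The 4 calls of sensing genes became 2 at 0.2, 0 at 0.4, 13 with no cutoff and 1 at a cutoff of 2. The 10 calls of regulators became 5 at 0.2, 0 at 0.4 and 5 at a cutoff of 2. The 9 calls of ATF4 targets became 5 at 0.2, 0 at 0.4, 17 with no cutoff and 5 at a cutoff of 2. The 2 calls of NRF2 targets became 1 with at least 1 read, with a mean of at least 50 reads, with FPKM + 1, at 0.1 and at a cutoff of 2, 0 at 0.2 and 0.4, and 5 with no cutoff. The 17 calls of other Slc genes became 1 at 0.2, 0 at 0.4, 53 with no cutoff and 5 at a cutoff of 2. The median of NRF2 targets changed sign to 0.066 (TMM), 0.073 (median of ratios), 0.030 (upper quartile) and 0.047 (length). That of other Slc genes changed sign to 0.040, 0.046, 0.0031 and 0.053. Except where shown, the cause was not tested. A count of 0 allowed up to 3 reads, or 0.29 CPM in the control and 0.33 in the HTL treatment library, and Slc6a9, with 57 and 145 reads, was the carrier whose value depth limited most.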

Other observations

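Besides the amino acid transporters listed, the table held 241 genes whose symbols begin with Slc, and 192 of them were tested. They were taken by symbol, so a few, such as the scaffold genes Slc9a3r1 and Slc9a3r2, are not carriers, and Slc48a1 is also among the NRF2 targets. Of these 5 rose and 12 fell, which is 8.85% called against 10.8% of all genes tested, and the median log2 ratio was -0.090, above 0 under the other scalings. The largest rise among called genes with at least 50 reads over both libraries was that of Slc35e4, from 19 reads in the control to 74 in the HTL treatment library (log2 ratio 2.12). Called genes of the mitochondrial Slc25 family went both ways, and Slc25a25 (1.28) and Slc25a33 (1.14) rose. Slc25a27, an uncoupling protein, went from 47 to 3 reads, a log2 ratio of -3.59 (95% counting interval -6.11 to -2.15). Slc25a10, the dicarboxylate carrier, fell from 148 to 29 reads (-2.15) and Slc25a40, a carrier of glutathione into mitochondria, from 93 to 19 (-2.08). The insulin-responsive glucose carrier Slc2a4 fell from 50 to 12 reads (-1.83) and the sodium-proton exchanger Slc9a8 from 189 to 49 (-1.75). Slc16a4, of the monocarboxylate carrier family, went from 39 to 3 reads, a log2 ratio of -3.33 (-5.85 to -1.86). Slc16a4, Slc25a25 and Slc25a33 were named after their values were seen.

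The 3 genes of highest control level in this group were not called. The lactate exporter Slc16a3 had 5615 and 3650 reads (220 and 163 FPKM, log2 ratio -0.44). The adenine nucleotide carrier Slc25a5 had 2350 and 1596 reads (174 and 134 FPKM, -0.37), and the phosphate carrier Slc25a3 had 2482 and 2165 reads (160 and 158 FPKM, -0.012). In the control library Slc7a11, at 184.6 FPKM, stood between Slc16a3 and Slc25a5.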
